A study of Mus musculus with 9 samples.

Results

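Sertoli cells are the somatic nurse cells of the seminiferous tubules. Described here are 8 of the 32035 genes measured in mouse testis RNA, namely the transcription regulators of the Sertoli lineage Sox9, Sox8, Wt1, Gata4, Gata1 and Dmrt1 and the reproductive homeobox genes Rhox5 and Rhox8. They were chosen by name, as regulators of Sertoli cell identity and of the response of these cells to androgen. Earlier results of these data were known when these genes and all lists were chosen, so counts of called genes are a description. All 8 genes passed the expression filter in every comparison. Lists of other androgen-responsive genes, and of chaperones and coregulators of the androgen pathway, were set beside them.

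The study asked how loss of Kpna6, which encodes importin α7, a nuclear import adaptor, affects the testis, and whether genes of Sertoli cells and of the androgen response are altered. Its quantitative PCR of adult testes, scaled to Gapdh, covered Rhox5, Wt1, Gata1, clusterin (Clu), Cldn11 and Cldn3 among others. It reported no significant difference for most of them, and only Cldn3 as clearly lower, in ΔIBB/ΔIBB. RNA of whole testes was sequenced from male mice of the strain C57Bl6/N at 15 weeks of age, with 3 samples each from the genotypes WT, Kpna6 ΔIBB/ΔIBB and Kpna6 -/-. In the ΔIBB/ΔIBB line exon 2 of Kpna6 is deleted, in all cells, and a shortened mRNA encodes a protein without the domain that binds importin β. In the -/- line a gene trap sits in intron 1, and the study describes a testis-specific first exon from which germ cells, but not Sertoli cells, of this line still make the full protein. The labels name no drug or hormone treatment, and they do not say whether each testis came from a separate animal, so P-values measure the spread between these samples.

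SOX9 carries the male fate of supporting cells in the fetal gonad and stays on in adult Sertoli cells, where SOX8 acts beside it, and both bind the same DNA motif. WT1 and GATA4 act upstream and alongside these factors, and DMRT1 keeps Sertoli cells from adopting the ovarian granulosa fate. Androgen from Leydig cells acts on Sertoli cells to sustain spermatogenesis, and Rhox5 is the classical gene that it induces in these cells.

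Each library had 24859751 to 31484692 estimated counts on genes, and the 8 genes held between 160 and 2156 of them in a library. Kpna6 itself had 201, 325 and 334 CPM (counts normalized to the library size and composition) in WT, 81.2, 85.3 and 81.8 in ΔIBB/ΔIBB and 247, 249 and 262 in -/- testes. It was thus lower in every ΔIBB/ΔIBB testis, whereas the -/- testes lay within the WT range, so the RNA level of Kpna6 does not mark the libraries labelled -/-. All 10 Sertoli cell markers were detected, and no marker of any of the 11 cell types checked was at 0 in every library. The third ΔIBB/ΔIBB testis held 121 CPM of epididymis markers, against 8.57 to 14.7 in the other 8. Crisp1, Spink8 and Adam7 gave most of that sum, with 67.7, 24.5 and 17.3 CPM. Lcn8 and Gpx5 were at 0 in that library, and Rnase10 and Defb42 lay within the range of the other testes. Results on Rhox5, which is also transcribed in the epididymis, are given with that library named. In whole-testis RNA, fewer cells of a type and less RNA per cell cannot be told apart.

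In ΔIBB/ΔIBB testes 8 of the 8 genes were higher than in WT, at an adjusted P-value below 0.05 by edgeR's quasi-likelihood test, and 17.7% of all 18797 genes tested were called higher and 18.9% lower in that comparison. With library size alone as the scale, 5416 genes were higher and 2326 lower, and limma on log2(TPM + 1) gave 3925 and 1622, against 3327 and 3547 here, so the background of higher genes depends on the scale. In each of the 8 genes every ΔIBB/ΔIBB testis lay above every WT testis, as in 24.8% of all genes, while a further 25.2% lay entirely below. Their log2 fold changes ran from 0.41 for Dmrt1 to 0.72 for Rhox8 with a median of 0.53, against a median of 0.009 over all genes. Against -/- testes 8 of 8 were higher again, with 13.5% of all genes called higher and 16.8% lower (30.3% in all, with 2523 higher and 3150 lower, against 4931 and 2016 by library size alone and 3794 and 1330 by limma), a range of 0.19 for Gata4 to 0.42 for Sox9 and a median of 0.34. Between -/- and WT testes 0 of 8 passed the adjusted threshold by edgeR, where 1.60% of all genes did (0.889% higher and 0.712% lower). All 8 estimates lay above 0 there, with a median of 0.18 against 0.002 over all genes, 4 had an unadjusted P-value below 0.05, and DESeq2 and limma also called 0.

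**Figure D1:**
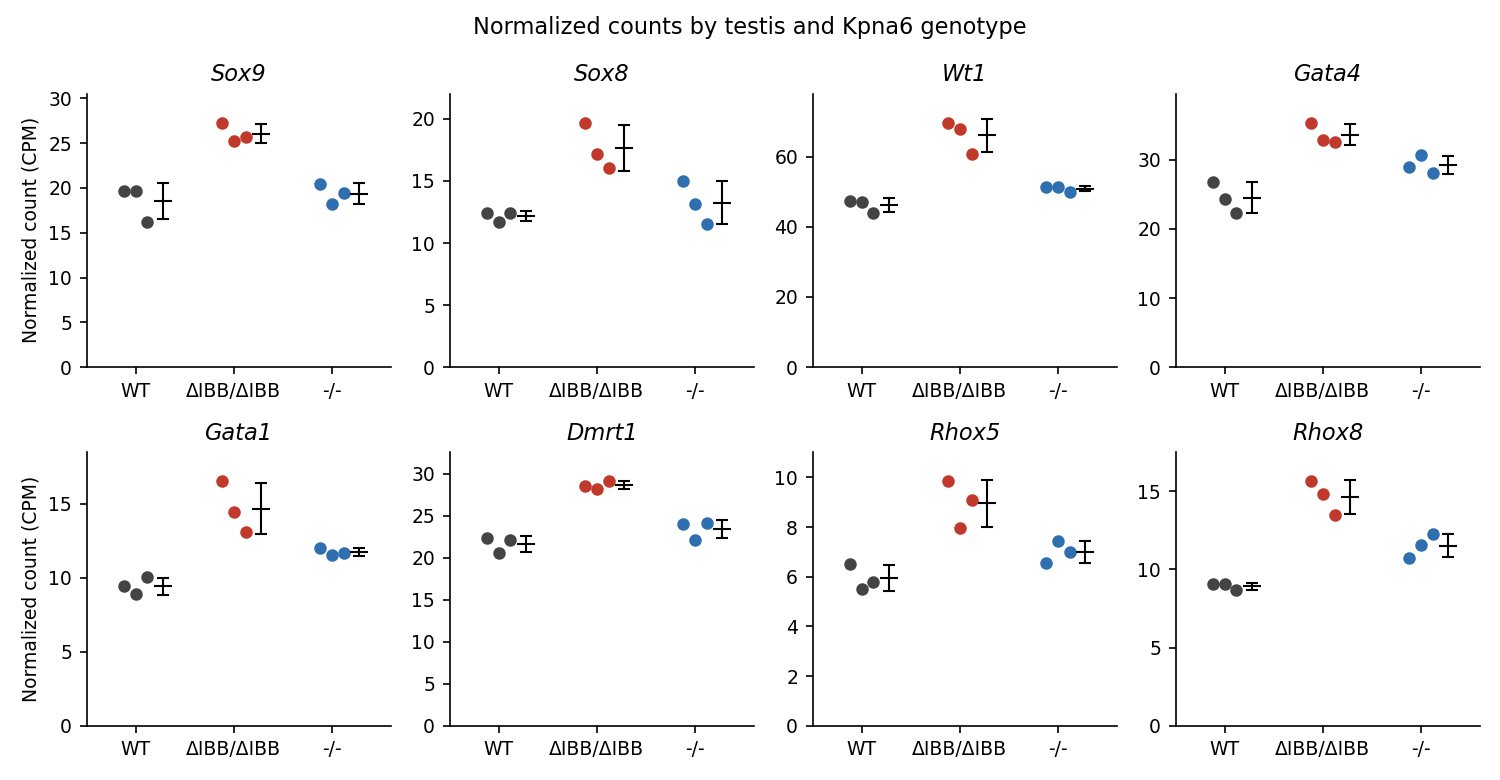
Normalized counts (CPM, y axis) of the 8 genes in each testis, by Kpna6 genotype (x axis), with points for single testes and bars for mean ± SD (n = 3). The 3 ΔIBB/ΔIBB points lie above all WT and all -/- points in each of the 8 panels.

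Sox9, whose product is the central switch of the Sertoli fate, had 19.7, 19.6 and 16.2 CPM in WT, 27.3, 25.3 and 25.6 in ΔIBB/ΔIBB and 20.5, 18.2 and 19.4 in -/- testes. The ΔIBB/ΔIBB testes stood above the other 6, while WT and -/- values overlapped. The log2 fold change against WT was 0.50 ± 0.08 (SE, adjusted P = 0.000979 by edgeR), or 1.41-fold. For -/- testes it was 0.06 ± 0.09 (adjusted P = 0.80 by edgeR), with 2 SE to either side reaching from -0.11 to 0.24.

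Sox8, the close relative of Sox9, showed 12.4, 11.7 and 12.4 CPM in WT, 19.7, 17.2 and 16.1 in ΔIBB/ΔIBB and 15.0, 13.2 and 11.5 in -/- testes. Here too only the ΔIBB/ΔIBB group was separate from both others. It was 1.45-fold above WT (log2 0.54 ± 0.09 SE, adjusted P = 0.0011 by edgeR), and the -/- estimate was 0.12 ± 0.10 (adjusted P = 0.63 by edgeR). An antisense gene, 2810468N07Rik, shares 329 exonic bases with Sox8 at chr17:25570358-25570686 (GRCm38) and is not among the transcripts used here. The library protocol names no step that marks the strand, so reads from that gene cannot be told from reads of Sox8 in those bases.

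Wt1, which encodes a zinc finger protein needed for Sertoli cell maintenance, was the most abundant of the 8, with 47.4, 47.1 and 43.8 CPM in WT, 69.6, 67.8 and 60.6 in ΔIBB/ΔIBB and 51.3, 51.3 and 49.9 in -/- testes. All 3 groups were separate, in the order WT, -/-, ΔIBB/ΔIBB. The change was 0.52 ± 0.06 on the log2 scale in ΔIBB/ΔIBB (SE, adjusted P = 0.000113 by edgeR). In -/- testes it was 0.14 ± 0.05, which did not pass (adjusted P = 0.226 by edgeR, unadjusted P = 0.0185). In that comparison 10.2% of all genes had -/- values entirely above WT and 9.79% entirely below.

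Gata4, a zinc finger factor of Sertoli and Leydig cells, had 26.9, 24.4 and 22.4 CPM in WT, 35.4, 32.8 and 32.6 in ΔIBB/ΔIBB and 29.0, 30.7 and 28.1 in -/- testes. The -/- testes again lay between the other groups without overlap. Gata4 was 1.37-fold above WT in ΔIBB/ΔIBB (log2 0.46 ± 0.07 SE, adjusted P = 0.000764 by edgeR) and 1.19-fold in -/- testes (0.25 ± 0.07, adjusted P = 0.12 by edgeR). Without the first WT testis the -/- value was 0.32 and passed (adjusted P = 0.0339 by edgeR).

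Gata1 is the GATA factor of red blood cell precursors and, in the testis, of Sertoli cells in certain stages of the tubule cycle. It had 9.41, 8.86 and 10.0 CPM in WT, 16.5, 14.4 and 13.1 in ΔIBB/ΔIBB and 12.03, 11.5 and 11.7 in -/- testes, and no groups overlapped. The log2 fold change was 0.64 ± 0.105 (SE, adjusted P = 0.00084 by edgeR) in ΔIBB/ΔIBB and 0.32 ± 0.085 (adjusted P = 0.0908 by edgeR, unadjusted P = 0.00286) in -/- testes. Of 6 erythroid markers, 4 were lower, all of them globin genes, and 1 was higher in ΔIBB/ΔIBB. Their summed level was 46.5 to 71.8 CPM in WT, 35.6 to 53.6 in ΔIBB/ΔIBB and 36.3 to 65.0 in -/- testes. The beta globin gene Hbb-bs changed by -1.09 (adjusted P = 0.00303 by edgeR), and Alas2, the first enzyme of heme synthesis in red cells, by 0.55 (adjusted P = 0.00787 by edgeR, named after its value was seen). Gata1 thus moved opposite to the globin genes and with Alas2, and the share of blood in its level was not tested.

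Dmrt1, a DM domain factor of Sertoli cells and spermatogonia, had the smallest rise of the 8. It showed 22.3, 20.6 and 22.1 CPM in WT, 28.6, 28.2 and 29.1 in ΔIBB/ΔIBB and 24.0, 22.1 and 24.1 in -/- testes. WT and -/- values overlapped by a narrow margin, and the ΔIBB/ΔIBB values stood apart. The change against WT was 0.41 ± 0.06 (SE, adjusted P = 0.000455 by edgeR) and that of -/- testes 0.11 ± 0.07 (adjusted P = 0.49 by edgeR). Of 9 spermatogonium markers 2 were higher and 1 was lower in ΔIBB/ΔIBB, with sums of 159 to 165 CPM against 129 to 153 in WT, and their part in the Dmrt1 level was not tested.

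Rhox5, the homeobox gene best known as an androgen target of Sertoli cells, was the lowest in CPM, with 6.53, 5.50 and 5.81 in WT, 9.84, 7.96 and 9.08 in ΔIBB/ΔIBB and 6.56, 7.43 and 6.99 in -/- testes. The groups did not overlap, although the gap between the highest WT and the lowest -/- testis was small. Rhox5 was 1.51-fold above WT in ΔIBB/ΔIBB (log2 0.59 ± 0.12 SE, adjusted P = 0.00274 by edgeR). The third ΔIBB/ΔIBB testis, with the epididymis markers, had the middle value of its group. In -/- testes the change was 0.23 ± 0.11 (adjusted P = 0.37 by edgeR).

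Rhox8, another gene of the X-linked Rhox cluster with Sertoli expression, rose most. It had 9.04, 9.05 and 8.67 CPM in WT, 15.6, 14.8 and 13.5 in ΔIBB/ΔIBB and 10.8, 11.5 and 12.2 in -/- testes, and every -/- testis exceeded every WT testis. The rise in ΔIBB/ΔIBB was 1.64-fold (log2 0.72 ± 0.09 SE, adjusted P = 0.000156 by edgeR). The -/- estimate of 0.365 ± 0.09 missed the threshold (adjusted P = 0.0625 by edgeR), and with all genes of at least 1 count in the test it passed (adjusted P = 0.0416). Of the 40 other Rhox genes in the annotation 16 passed the filter (Rhox1, Rhox2a, Rhox2-ps, Rhox3a2, Rhox3b-ps, Rhox3c, Rhox3e, Rhox3f, Rhox3h, Rhox4b, Rhox4c, Rhox4d, Rhox10, Rhox11, Rhox11-ps2 and Rhox13). By edgeR 0 of these 16 were called in ΔIBB/ΔIBB against WT, also at an unadjusted P-value below 0.05, and DESeq2 called 0 and limma 1. Their log2 estimates ran from -0.88 to 0.68, with 8 above 0. Rhox2a, at 0.57 ± 0.26 (SE), had no call at an estimate near that of Rhox5. The lack of calls at these low levels therefore does not show a lack of change. The most abundant of the 16 by CPM were Rhox11, with 2.77 to 3.43 CPM in WT and 2.72 to 3.02 in ΔIBB/ΔIBB, and Rhox13, with 2.47 to 3.60 and 2.99 to 3.49. The Rhox2, Rhox3 and Rhox4 copies are near-identical, and their estimated counts are uncertain for that reason.

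**Figure D2:**
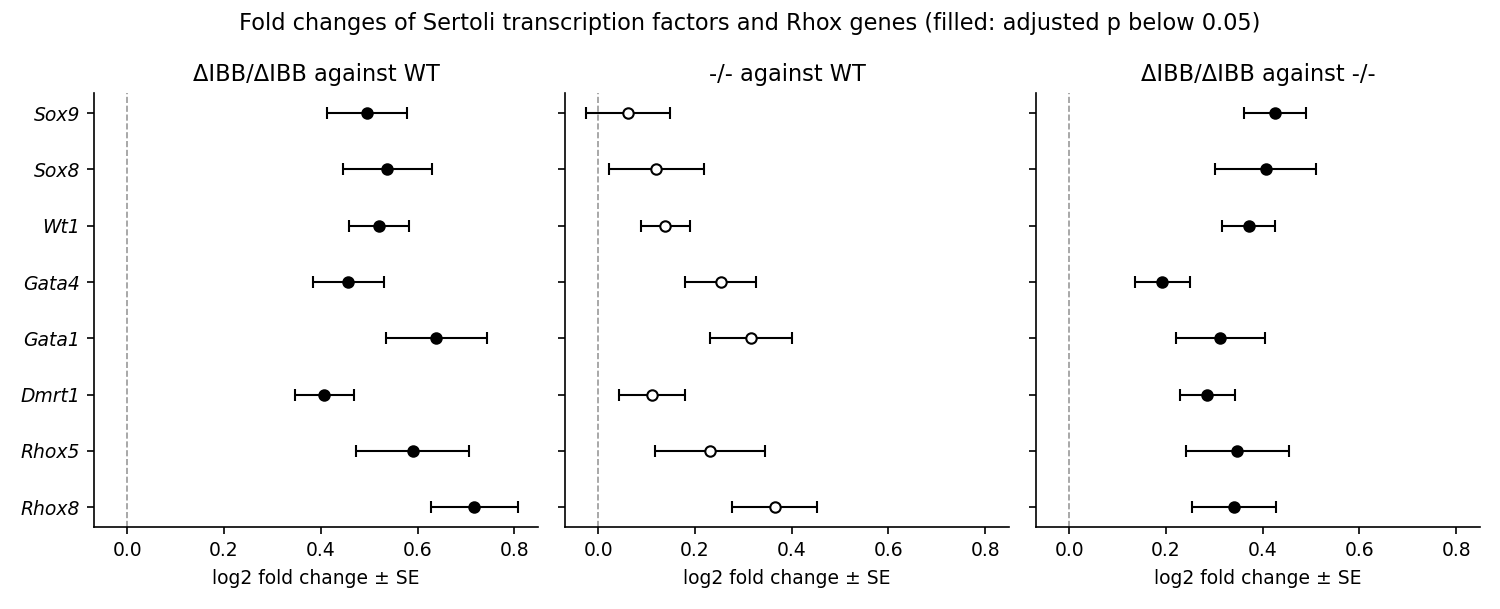
Log2 fold changes ± SE (x axis) of the 8 genes (y axis) in the 3 comparisons, filled where the adjusted P-value was below 0.05. All 8 points are filled and right of 0 for ΔIBB/ΔIBB against WT and against -/-, and all 8 are open and right of 0 for -/- against WT.

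The difference between the mutant lines was tested directly, with the ΔIBB/ΔIBB and -/- testes in 1 comparison. It was 0.42 ± 0.06 for Sox9 and 0.37 ± 0.05 for Wt1 (adjusted P = 0.000434 and 0.000333 by edgeR). Gata4 differed least, by 0.19 ± 0.06 (adjusted P = 0.0232 by edgeR). The comparisons of both lines with WT share the WT testes, so their values are given side by side and not correlated. Gata1, Gata4 and Rhox5 lost the call between the lines without the first ΔIBB/ΔIBB testis (adjusted P from 0.0843 to 0.096 by edgeR), which had the highest CPM of its group for 7 of the 8 genes, and without the first -/- testis. Without the third -/- testis Sox8 was lost as well, leaving 4 genes, and without the second testis of either line Gata1 alone was lost (adjusted P = 0.0566 and 0.0759 by edgeR). Sox9, Wt1, Dmrt1 and Rhox8 kept the call whichever testis was left out.

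In TPM, which scales counts to transcript length and library size, Wt1 was highest in every group, with means of 29.1 in WT, 44.6 in ΔIBB/ΔIBB and 30.8 in -/- testes. Rhox5 came next with 14.9, 24.6 and 17.4 TPM, and did not differ from Gata4 (14.3, 22.0 and 17.2) beyond the spread between testes. Dmrt1, Rhox8 and Gata1 followed in WT with 12.7, 11.5 and 10.3 TPM, and Rhox8 stood above Dmrt1 in ΔIBB/ΔIBB (20.6 against 18.4). Sox9 and Sox8 were lowest, with 5.72 and 5.58 TPM in WT, and overlapped each other in every group. The short length of the Rhox5 transcript thus moved it from last by CPM to second place by TPM.

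Wt1 is transcribed from a pair of first exons and spliced at 2 alternative sites, which give proteins with different DNA and RNA binding. In GENCODE M21 the transcripts Wt1-204 and Wt1-205 begin in the upstream first exon, which for Wt1-205 is chr2:105126529-105127442 (GRCm38, plus strand). Wt1-201 and Wt1-202 begin in the downstream one at chr2:105130883-105131152. The sequences below, read from the GENCODE transcripts, show the splice variants at the junction to the last exon, where capitals mark the 9 bases that Wt1-201 and Wt1-205 carry and Wt1-202 and Wt1-204 lack. They encode the 3 residues known as KTS between the last zinc fingers.
Wt1-205 with the insert: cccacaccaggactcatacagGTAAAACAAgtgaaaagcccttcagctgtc
Wt1-204 without it: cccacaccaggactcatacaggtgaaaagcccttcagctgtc
The other site is an exon of 51 bases at chr2:105144142-105144192, shown because its presence sets Wt1-202 and Wt1-205 apart.
Exon of 51 bases: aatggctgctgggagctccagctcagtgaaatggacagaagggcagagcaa

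The estimated use of the first exons of Wt1 separated the genotypes without overlap, which 3 testes a group cannot carry past the threshold. The upstream first exon had 51.0, 56.9 and 51.6% of the TPM of these 4 transcripts in WT, 58.1, 62.8 and 63.9% in ΔIBB/ΔIBB and 66.9, 73.8 and 70.2% in -/- testes. The share was thus highest in -/- testes and no groups overlapped. The differences from WT were 8.43 percentage points in ΔIBB/ΔIBB and 17.1 in -/- testes (P = 0.1 each by a two-sided exact permutation test, n = 3 against 3, the smallest value this design allows). By TPM, the upstream transcripts had a mean of 12.5 ± 1.10 in WT, 22.8 ± 1.34 in ΔIBB/ΔIBB and 17.9 ± 1.44 in -/- testes (SD, n = 3). Those with the downstream exon had 11.6, 10.4 and 10.9 TPM in WT, 16.4, 14.3 and 12.2 in ΔIBB/ΔIBB and 8.42, 6.95 and 7.30 in -/- testes. In the -/- line the downstream transcripts therefore lay below WT while the gene as a whole lay slightly above it (exact permutation P = 0.1). Between 15.4 and 19.0 percentage points separated -/- from WT with any 1 testis left out.

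By shares of TPM, splicing of Wt1 showed no separation of that kind. The transcripts with the 9 bases held 57.2 ± 4.03% in WT, 60.3 ± 2.95% in ΔIBB/ΔIBB and 62.7 ± 3.79% in -/- testes (SD, n = 3, exact permutation P = 0.5 and 0.3 against WT). Those with the exon of 51 bases held 52.7 ± 4.44%, 53.1 ± 3.58% and 56.2 ± 1.94% (exact permutation P = 0.9 and 0.4). By shares of estimated counts, however, -/- testes lay above WT without overlap for both sites. The differences were 7.98 percentage points for the 9 bases and 6.0 for the exon (exact permutation P = 0.1 each). ΔIBB/ΔIBB overlapped WT for both sites on that measure (exact permutation P = 0.2 and 0.6). These shares are kallisto estimates, in which reads from shared exons are divided between transcripts. Wt1-204 is a shorter model than the others, so its share depends on how the reads of the shared exons were assigned.

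**Figure D3:**
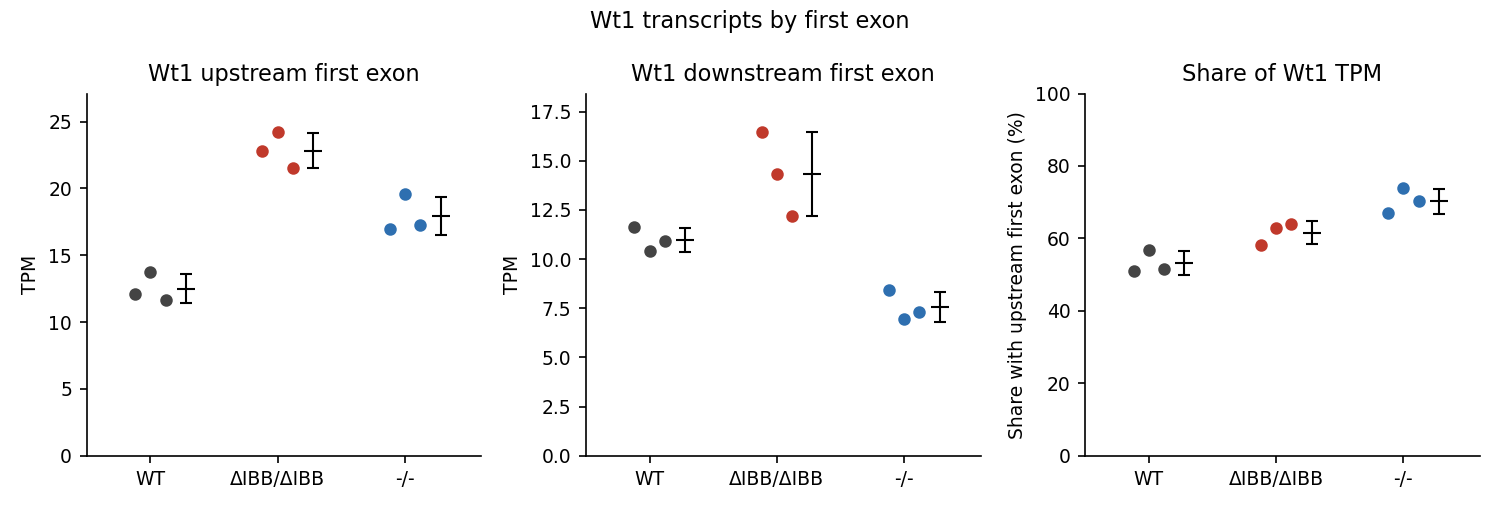
TPM of Wt1 transcripts with the upstream (left) and downstream first exon (middle), and the percentage with the upstream first exon (right), per testis by Kpna6 genotype with mean ± SD (n = 3). The downstream transcripts are highest in ΔIBB/ΔIBB and lowest in -/- testes, and the share is highest in -/- testes at 66.9 to 73.8%.

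Gata1 also has a pair of first exons, and the upstream one, at chrX:7978006-7978071 (GRCm38, minus strand), belongs to Gata1-202. That transcript model is short and ends within an exon of Gata1-201. Its share of Gata1-201 and Gata1-202 was 37.1, 35.8 and 41.6% in WT, 31.9, 34.0 and 31.5% in ΔIBB/ΔIBB and 34.3, 28.2 and 39.1% in -/- testes. ΔIBB/ΔIBB lay below WT by 5.70 percentage points (exact permutation P = 0.1), but by only 2.64 when shares of estimated counts were used. RefSeq holds a window around the start of Gata1-201, which has the larger share. The window, chrX:7967861-7968160 on the minus strand of GRCm38.p6, is shown because Gata1-201 had the larger estimated share. Gata1-202 lacks the later exons of Gata1-201, so reads from them go to Gata1-201 whichever first exon the RNA had. The shares therefore do not show which start most Gata1 RNA used. The window holds 250 bases before and 50 from the first base of the transcript on.
Gata1-201 start: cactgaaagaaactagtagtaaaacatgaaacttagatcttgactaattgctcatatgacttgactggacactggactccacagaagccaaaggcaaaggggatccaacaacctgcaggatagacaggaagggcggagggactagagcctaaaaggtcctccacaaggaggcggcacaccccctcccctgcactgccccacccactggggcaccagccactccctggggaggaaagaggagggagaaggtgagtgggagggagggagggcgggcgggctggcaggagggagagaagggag
It was searched on both strands for the GATA motif, the SOX motif and the core of the androgen response element, and 0 matches were found. The GATA motif was spelled as AGATAA, with AGATAG, then TGATAA and finally also TGATAG allowed. The SOX motif was AACAAT, and the androgen core was AGAACA. The window of Sox8 had 0 matches as well. Of 32851 windows of the same length, 29.8% hold a GATA match, 10.7% the SOX motif and 19.0% the androgen core. Windows were matched for 3 of the 8 genes. That of Rhox5 lies 50234 bases from the nearest start of the Rhox5 transcripts measured here and is not printed. It held 1 SOX match and 1 match to the androgen core, at positions -227 and -225 from its start on the opposite strand, which overlap each other. All Rhox5 RNA was assigned to Rhox5-202, and Rhox5-201 was listed at 0 in every testis.

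Of 8 other androgen-responsive genes of Sertoli cells, 5 were higher and 2 lower in ΔIBB/ΔIBB (36.6% of all genes were called in either direction). In -/- testes 2 were higher and 1 lower, where 1.60% of all genes were called, and limma on TPM called 0. Eppin, which encodes an epididymal and testicular protease inhibitor, had 21.7, 20.0 and 23.3 CPM in WT, 44.4, 38.8 and 39.4 in ΔIBB/ΔIBB and 31.2, 31.0 and 30.6 in -/- testes. For Eppin too the third ΔIBB/ΔIBB testis, with the epididymis markers, had the middle value of its group. The -/- testes lay between the other groups, and both lines passed against WT (log2 0.92 ± 0.075 and 0.51 ± 0.07 SE, adjusted P = 1.61e-05 and 0.00209 by edgeR). Tubb3, a beta-tubulin of the Sertoli cytoskeleton, rose by 0.94 ± 0.08 and by 0.35 ± 0.07 (adjusted P = 2.34e-05 and 0.0365 by edgeR), the latter call being lost in 8 of 15 alternative settings. Drd4, a dopamine receptor gene, rose by 0.82 ± 0.125 in ΔIBB/ΔIBB (adjusted P = 0.000513 by edgeR), and was at 0.135 ± 0.14 in -/- testes (adjusted P = 0.725 by edgeR). The other genes of the list were named after their values were seen. Serpina5 and Tsx had 0.62 and 0.49 in ΔIBB/ΔIBB (adjusted P = 9.35e-05 and 0.000706 by edgeR). Gpd1, with 0.28, did not pass (adjusted P = 0.0924 by edgeR).

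Cldn3, the tight junction protein claudin 3 of the blood-testis barrier, went the other way. It had 54.4, 58.2 and 56.8 CPM in WT, 32.2, 35.6 and 32.2 in ΔIBB/ΔIBB and 60.6, 56.9 and 59.2 in -/- testes. Only the ΔIBB/ΔIBB group was separate, and it was the lowest. The change was -0.76 ± 0.06 (SE, adjusted P = 1.39e-05 by edgeR) in ΔIBB/ΔIBB and 0.06 ± 0.05 (adjusted P = 0.637 by edgeR) in -/- testes, and the lines differed by -0.825 ± 0.05 (adjusted P = 1.82e-06 by edgeR). Between the lines 22.7% of all genes had ΔIBB/ΔIBB values entirely below the -/- values. Cldn3 is also expressed in germ cells, and the study proposes that their loss may explain at least part of its decrease in ΔIBB/ΔIBB. The part of germ cells in the Cldn3 level was not tested here. Corin, a serine protease gene, was lower in both lines, by -0.24 ± 0.07 and -0.25 ± 0.05 (adjusted P = 0.015 and 0.0341 by edgeR). In TPM its ΔIBB/ΔIBB values overlapped those of WT (10.41 to 12.21 against 11.84 to 12.96), while the -/- values (9.905 to 11.15) lay below WT.

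**Figure D4:**
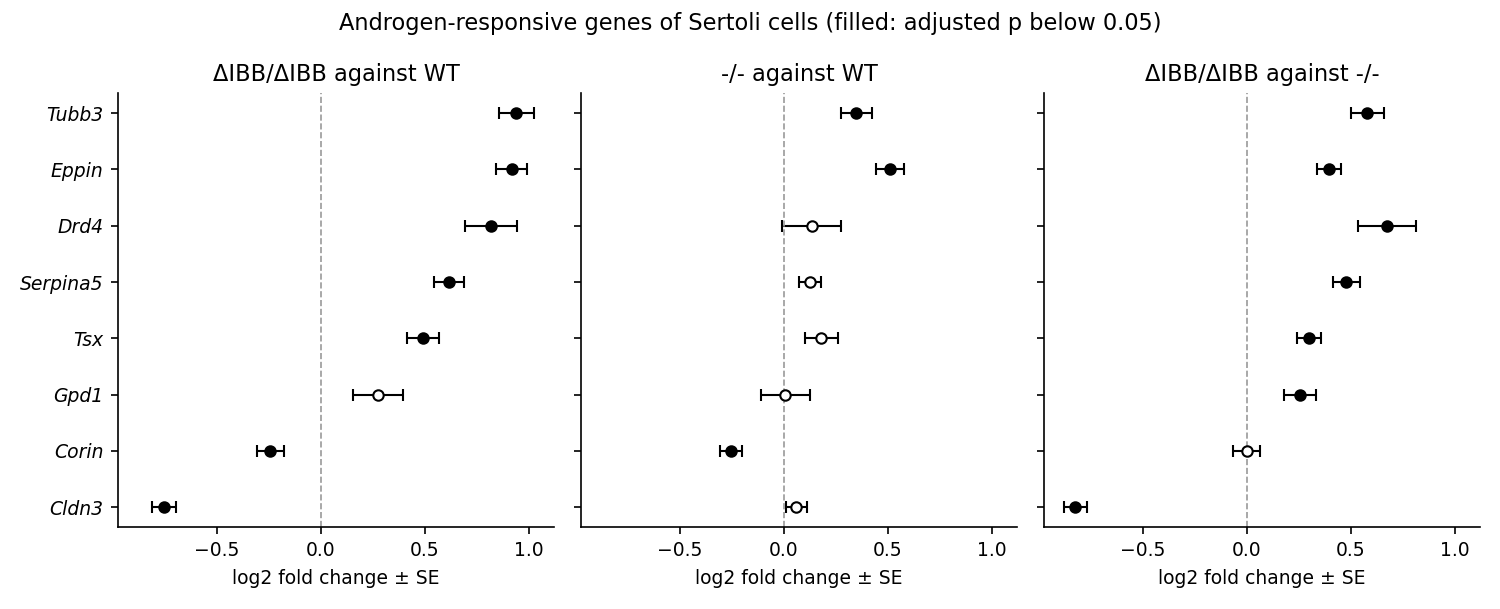
Log2 fold changes ± SE (x axis) of 8 androgen-responsive genes of Sertoli cells (y axis) in the 3 comparisons, filled where the adjusted P-value was below 0.05. Tubb3 and Eppin are right of 0 and filled in all 3 panels, and Cldn3 is at -0.76 and -0.825 in the panels with ΔIBB/ΔIBB and near 0 for -/- against WT.

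Among 9 chaperones and coregulators of the androgen pathway, 4 were higher and 3 lower in ΔIBB/ΔIBB than in WT by edgeR. Of all genes, 17.7% were called higher and 18.9% lower there. DESeq2 called 7 of the 9 in either direction and limma on TPM 4. The chaperone Hsp90ab1 had 243, 253 and 260 CPM in WT and 343, 342 and 331 in ΔIBB/ΔIBB, a rise of 0.43 ± 0.04 (SE, adjusted P = 2.49e-05 by edgeR). Fkbp5, a cochaperone that androgen and glucocorticoid induce, rose by 0.32 ± 0.06 (adjusted P = 0.00156 by edgeR). The coactivator Ncoa1 changed by -0.23 ± 0.05 and the corepressor Ncor1 by -0.22 ± 0.04 (adjusted P = 0.0077 and 0.00149 by edgeR). In -/- testes edgeR called 0 of the 9, with 1 at an unadjusted P-value below 0.05, and DESeq2 and limma called 0.

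Of 15 other transcription regulators of the Sertoli lineage 14 were tested, and 5 were higher and 0 lower in ΔIBB/ΔIBB (17.7% and 18.9% of all genes). Nr0b1, which encodes the orphan receptor DAX1, had 17.4, 15.2 and 17.1 CPM in WT and 25.5, 26.8 and 23.2 in ΔIBB/ΔIBB, and rose by 0.61 ± 0.08 (SE, adjusted P = 0.000231 by edgeR). Nr5a1, which encodes the steroidogenic factor SF1, rose by 0.37 ± 0.07, Etv5, a factor for niche signals to spermatogonia, by 0.34 ± 0.08, and Zfpm2, the GATA4 cofactor FOG2, by 0.30 ± 0.08 (adjusted P = 0.0014, 0.00683 and 0.016 by edgeR). Their median of 0.19 lay below that of the 8 genes. In -/- testes edgeR and limma called 0 and DESeq2 1 of the 14, and Nr5a1 was nearest, at 0.23 ± 0.05 (adjusted P = 0.0545 by edgeR). Among 6 tested genes of ovarian supporting cells, the type that loss of DMRT1 or SOX9 allows, only Wnt4 was called in ΔIBB/ΔIBB against WT (1.14 ± 0.28, adjusted P = 0.0086 by edgeR), at a mean of 0.457 TPM, named after its values were seen. Cyp19a1 and Rspo1, the most abundant of these by TPM, had 0.07 ± 0.13 and -0.35 ± 0.305 (adjusted P = 0.703 and 0.401 by edgeR). Against -/- testes 3 of the 6 were higher in ΔIBB/ΔIBB, where 13.5% of all genes were called higher. They were Wnt4 (0.98 ± 0.30), Cyp19a1 (0.46 ± 0.13) and Fst (1.17 ± 0.33), with adjusted P = 0.03, 0.0201 and 0.0194 by edgeR. DESeq2 called 3 of the 6 there and limma 2. In -/- against WT edgeR called 0 of 6, with 1 at an unadjusted P-value below 0.05 and 0 by DESeq2 and limma. Fst, at a mean of 0.531 TPM, was named after its values were seen. A change of cell fate was not tested.

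Markers of several cell types moved as well. In ΔIBB/ΔIBB against WT 17.7% of all genes were called higher and 18.9% lower. Of 10 Sertoli cell markers 10 were higher in ΔIBB/ΔIBB, with a median of 0.59 and a range of 0.34 to 1.78. Their summed level was 1210 to 1350 CPM in WT, 1770 to 2130 in ΔIBB/ΔIBB and 1450 to 1530 in -/- testes. The hormone gene Amh (1.78 ± 0.165 SE, adjusted P = 2.82e-05 by edgeR), the receptor gene Fshr (1.345 ± 0.17) and the inhibin subunit gene Inha (1.21 ± 0.09) rose most, each by more than any of the 8 genes. Clu (0.59) and Cldn11 (0.56) were also called higher, as were Rhox5, Wt1 and Gata1. This differs from the study's quantitative PCR, which found most of its genes unchanged on a scale set by Gapdh. The reason for the difference was not tested. In -/- testes 2 of the 10 passed, among them Inha with 0.62 ± 0.10 (adjusted P = 0.00643 by edgeR). There 1.60% of all genes were called by edgeR, and of the 10 markers DESeq2 called 2 and limma 0. Of the 6 round and 6 elongating spermatid markers all 12 were lower in ΔIBB/ΔIBB by edgeR, with medians of -0.47 and -0.36. DESeq2 also called all 12, and limma on TPM called 4 of 6 in each list. The elongating spermatid markers summed to 15100 to 17000 CPM in WT, 11600 to 13300 in ΔIBB/ΔIBB and 16900 to 17400 in -/- testes. CPM values are shares of a library, and the part that these markers had in the rise of the 8 genes was not tested. Peritubular myoid markers were higher for 4 of 5 and macrophage markers for 3 of 5, while Leydig cell markers had 2 higher of 8, a median of 0.01 and overlapping sums (796 to 1360 CPM in WT, 893 to 1170 in ΔIBB/ΔIBB). Endothelial markers had 0 higher and 1 lower of 5 (median -0.01). Pachytene spermatocyte markers had 0 higher and 1 lower of 6 (median -0.13). DESeq2 called 4 myoid, 2 macrophage, 0 Leydig, 1 endothelial and 3 pachytene markers in either direction.

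Relative to the Sertoli cell markers all 8 genes had estimates below WT in ΔIBB/ΔIBB testes, of which 5 passed the test. The geometric mean of the 10 markers was 36.9, 30.8 and 29.9 CPM in WT, 60.4, 58.1 and 55.6 in ΔIBB/ΔIBB and 40.1, 41.3 and 38.2 in -/- testes. Sox9 amounted to 57.1 ± 5.78% of it in WT and 44.9 ± 1.33% in ΔIBB/ΔIBB, and Gata4 to 75.6 ± 3.25% and 57.9 ± 1.24% (SD, n = 3). Rhox8 stayed nearer, with 27.6 ± 2.70% and 25.2 ± 0.85%. With this mean as the scale in edgeR, 5 of the 8 genes were lower in ΔIBB/ΔIBB than in WT at an adjusted P-value below 0.05 (Sox9, Sox8, Wt1, Gata4 and Dmrt1, from -0.31 to -0.44), and Gata1, Rhox5 and Rhox8 were at -0.21, -0.25 and -0.13 without a call. The scale rests on 10 genes of which Amh, Fshr and Inha rose most, and the others rose by 0.34 (Dhh) to 0.92 (Trf). It lowers the estimates of all genes in ΔIBB/ΔIBB, and the share of all genes called on it is not given here. The 5 calls therefore describe a smaller rise than that of the marker mean. On this scale edgeR called 0 of the 8 genes in -/- testes against WT, as did edgeR without it.

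**Figure D5:**
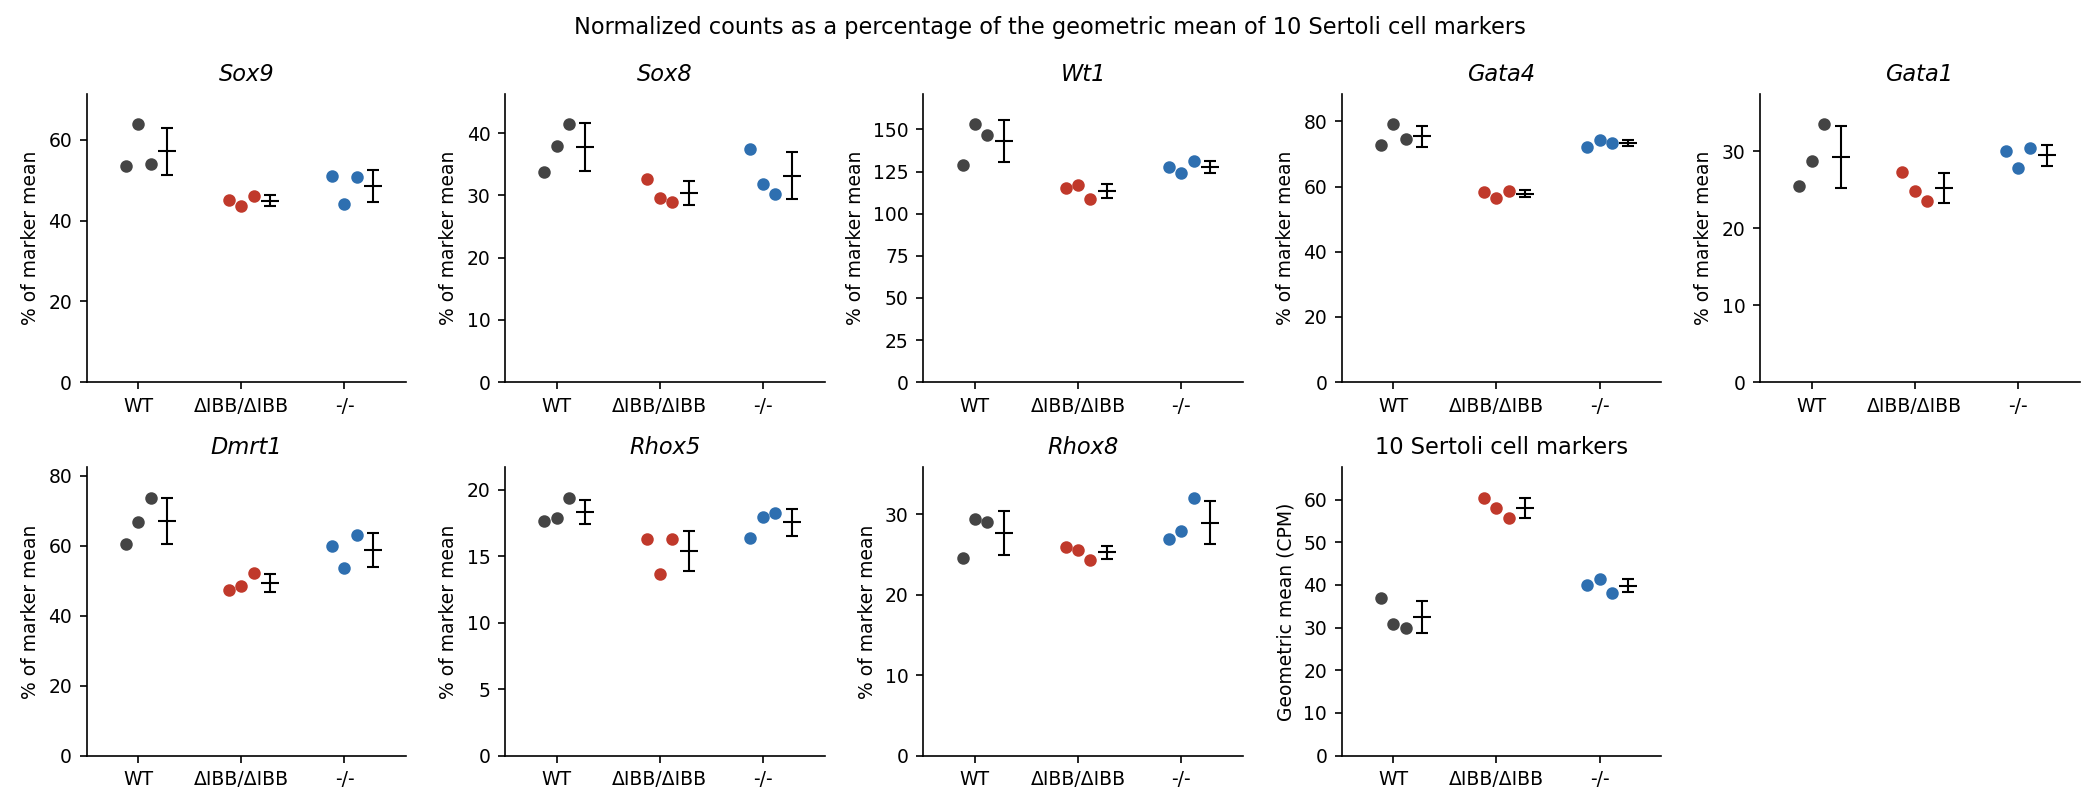
Level of each gene as a percentage of the geometric mean of 10 Sertoli cell markers (y axis) per testis by Kpna6 genotype (x axis), and in the last panel that mean in CPM, with mean ± SD (n = 3). The marker mean is highest in ΔIBB/ΔIBB at 55.6 to 60.4 CPM, and the ΔIBB/ΔIBB points lie below all others for Wt1, Gata4, Dmrt1 and, narrowly, Rhox5.

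Across the 9 testes the 8 genes varied together. Pearson's r of log2(CPM + 0.5) ranged from 0.80 to 0.95 over the 28 pairs of genes, with a median of 0.90. These values are a description, since all points share the libraries and the groups. Among 16702 genes, the 5 most like the mean of the 8 were Clcn2 (r = 0.997), Hspb1 (0.996), Tmem184a (0.995), Lima1 (0.994) and Ctnna1 (0.994). Hspb1, the small heat shock protein HSP27, had 20.4, 17.6 and 17.6 CPM in WT, 46.3, 38.5 and 34.9 in ΔIBB/ΔIBB and 23.3, 24.2 and 23.6 in -/- testes. The gene most like each member was Tpx2 for Sox9, F3 for Sox8, Ttyh3 for Wt1, Gm14569 for Gata4, Asic4 for Gata1, BC048507 for Dmrt1, Fgf2 for Rhox5 and H2-D1 for Rhox8, with r from 0.982 to 0.997. On TPM the value for Rhox5 and Fgf2 was 0.17 in place of 0.99, so that likeness holds on 1 scale only.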

How the data were processed

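RNAseq was performed by the authors on whole testes (3 per genotype, poly-T selected RNA). Per the submitters' processing notes transcripts were quantified with kallisto 0.45. The deposited files give expected counts (estimated counts, not normalized) and TPM for 96626 transcripts per library. Both were summed per gene with GENCODE M21 (GRCm38), which assigned 95301 transcripts to 32035 genes and left out 1325. Gene counts were rounded and each pair of genotypes was tested on its 6 libraries with edgeR 4.0.16 (filterByExpr, TMM scaling, quasi-likelihood test) in R 4.3.3, with Benjamini-Hochberg adjustment at 0.05 over all genes tested. The study's own test (sleuth) was not used here. With it the study reported far fewer regulated genes in either line. Its volcano plot marks genes by a stricter P-value together with a limit on effect size. Calls here carry no limit on the fold change, so the counts are not like for like. SE was the log2 fold change divided by the square root of F. CPM in the text are TMM-scaled over all 9 libraries. Counts per gene of 160 to 2156 set the precision of the 8 genes. Shares of transcripts were compared with exact permutation tests in scipy 1.17.1. Alternatives were DESeq2 1.42.0, limma 3.58.1 on log2(TPM + 1) and log2(TPM + 0.1), library size scaling, no filter, length-scaled counts, a replicate block, leaving out each library, and scaling to 10 Sertoli cell markers. The code was tested on simulated counts. Named list genes were those with the largest absolute changes among called genes of at least 0.5 TPM, at most 4 per list. The 8 genes and all lists were chosen with earlier results of these data known. Some items of the androgen lists are not reported here.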

Additional observations from a re-analysis of the deposited data

Results flagged for a closer look

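The effect of the mutation against WT differed between the ΔIBB/ΔIBB and the -/- line for all 8 genes, by edgeR's test of the lines against each other, which is the test of that difference since both are read against the same WT testes. ΔIBB/ΔIBB exceeded -/- on the log2 scale by 0.42 for Sox9, 0.41 for Sox8, 0.37 for Wt1, 0.31 for Gata1, 0.19 for Gata4, 0.29 for Dmrt1, 0.35 for Rhox5 and 0.34 for Rhox8. In each of these genes 3 of 3 ΔIBB/ΔIBB testes lay above 3 of 3 -/- testes, as they did for 21.7% of all genes tested.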

How the results depend on the processing

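Each of the 8 genes remained called higher in ΔIBB/ΔIBB than in WT under 15 alternatives each. Scaling to the Sertoli cell markers lowers the estimates of all genes, and shares of all genes called on that scale are not given. Under it the values of the 8 genes turned to -0.346 for Sox9, -0.311 for Sox8, -0.327 for Wt1, -0.212 for Gata1, -0.384 for Gata4, -0.439 for Dmrt1, -0.25 for Rhox5 and -0.131 for Rhox8, with 5 called. Between the lines they turned to -0.113, -0.13, -0.167, -0.226, -0.343, -0.25, -0.187 and -0.197 in that order, with 4 called. For -/- against WT they turned to -0.232 for Sox9, -0.182 for Sox8, -0.16 for Wt1, -0.042 for Gata4, -0.187 for Dmrt1 and -0.064 for Rhox5. Sox9, at 0.061 there, ranged from -0.022 without the third WT testis to 0.108 without the first. Between the lines 5 of the 8 were called with length-scaled counts and 4 to 8 with 1 testis left out. Between -/- and WT 1 of the 8 was called with no filter and 0 to 1 with 1 testis left out. Over all genes that comparison gave 299 calls, against 477 by DESeq2, 624 with no filter, 32 and 33 by limma with pseudocounts of 1 and 0.1, 71 with length-scaled counts and 92 to 518 with 1 testis left out. The cause was not tested. Ncoa1, Ncor1, Zfpm2, Etv5 and Eppin (the last in -/-) lost their calls in 3, 3, 2, 1 and 2 of 15 alternatives. On TPM the likeness to the mean of the 8 was 0.9881 for Clcn2, 0.9839 for Tmem184a and 0.9791 for Lima1. Scaling by library size alone moved the median of all genes from 0.009 to 0.107 for ΔIBB/ΔIBB against WT.

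With the replicate number as a block 8, 0 and 8 genes were called for ΔIBB/ΔIBB against WT, -/- against WT and between the lines, and 6793, 229 and 6032 of all genes against 6874, 299 and 5673 without it. The labels do not say that numbers pair the testes, and deviations of same-numbered testes correlated at -0.046 to 0.085.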
